A study of Mus musculus with 18 samples.

Results

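HM-1 tumors labelled Cd276KO were compared with HM-1 cultures labelled Cd276KO, over all genes and with 3 libraries of each. These are 6 of the 18 libraries of the study, and they were taken by their labels, not by any measured value. The HM-1 line was derived from a mouse ovarian cancer, and Cd276 encodes B7-H3, a surface protein of the B7 family of immune checkpoint ligands. The study sequenced RNA of cultured HM-1 and ID8 cells and of HM-1 tumors grown in the skin. Each kind came with the label Cd276KO and with the label control, which makes 6 groups of 3 libraries.

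The tumors labelled Cd276KO grew from 1000000 HM-1 cells with that genotype label, injected into the skin of B6C3F1 mice, a hybrid strain, and were taken on day 10. The cultures labelled Cd276KO were HM-1 cells with the same genotype label, grown in MEM alpha medium with serum. The control tumors and control cultures carry the genotype label control and were otherwise described alike. The labels name no drug or other agent in any of these groups. They mark the 3 libraries of each group as biological replicates, with no number of clones, cultures or mice and no age of the mice. The p-values therefore measure the spread between these libraries, which may be technical. In what follows, "the tumors" and "the cultures" are those labelled Cd276KO unless controls are named.

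An intradermal tumor holds the injected cancer cells together with blood vessels, fibroblasts, immune cells and often skin muscle of the mouse, while a culture of a cell line holds the line alone. RNA of a tumor piece is a mixture of all of these. A gene that is silent in a cultured line and present in the tumor can come from host cells, or from cancer cells that switched it on in the animal, and counts per gene do not separate the sources. Likewise, fewer cells of a type and less RNA per cell cannot be told apart in such libraries.

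Total counts were 17972518, 23488280 and 17349082 in the tumors and 20945275, 19523261 and 19393907 in the cultures. The difference between libraries of one group was measured as a chi-square of the counts divided by the number of genes, which is near 1 for sampling noise alone. It was 11.9 to 35.8 between tumors and 2.52 to 4.09 between cultures. Among the controls, culture 1 stood apart from the other cultures (63.9 and 65 against 1.57 between those) and tumor 3 from the other tumors (81.3 and 134 against 41.1). The controls enter a single test here, of how far the tumor to culture difference depends on the label. Mitochondrially encoded genes took 1.78% to 2.38% of counts in the tumors and 1.2% to 1.6% in the cultures.

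Cd276 was counted in every library. The gene (ENSMUSG00000035914.11) lies on chromosome 9 of GRCm38, from 58524298 to 58555437 on the minus strand. Levels are given as counts per 1000000 counts of a library (CPM), which are not corrected for gene length and are compared between samples, not between genes. Cd276 had 73.2, 97.2 and 89.5 CPM in the tumors and 47.2, 47.7 and 44.8 CPM in the cultures. It had 142, 107 and 116 CPM in control tumors and 74.2, 93.5 and 91.5 CPM in control cultures. The level was higher in each tumor than in each culture, and under the Cd276KO label it was below every control library of the same setting. The log2 fold change of tumors over cultures was 0.76 (SE 0.09, adjusted p = 4.65e-05). Counts per gene do not show the targeted stretch of the gene, so transcripts of an edited gene would still be counted, and the label is checked in part.

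Differences were tested with edgeR's quasi-likelihood test, and genes with an adjusted p under 0.05 are called higher or lower (adjustment by Benjamini and Hochberg over every gene tested). Of 14330 genes tested, 10841 were called (75.7%). The tumors were higher for 5904 genes (41.2%) and lower for 4937 genes (34.5%), and the median log2 fold change was 0.08. Upper-quartile scaling and scaling by total counts shifted this median by 0.166 and 0.134, so changes of that size have no firm direction. Changes of over 2-fold were called higher for 3698 genes (25.8%) and lower for 1079 genes (7.53%). The 3 tumor values lay on one side of the 3 culture values for 11285 genes (78.8%). With so many calls, a list with most of its members called is not by that fact set apart, and lists are described by their counts and medians beside these values. A gene that passed the low-count filter only through the tumors had to differ, so counts and medians over the tested members of a list describe it and support nothing. At a level of at least 1 CPM in all 3 libraries, 12926 genes were detected in the tumors and 11025 in the cultures. Of the genes detected in the tumors, 1770 were below 1 CPM in every culture, and of those detected in the cultures, 71 were below 1 CPM in every tumor.

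A set of 186 genes had at most 3 counts over the cultures together and at least 5 CPM in each tumor, and 182 of them code for proteins. In 66 of them no read was counted in the cultures. No gene met the same rule with tumors and cultures exchanged. These 186 genes were chosen by the values compared, so their levels are a description. They took 0.401%, 0.87% and 0.664% of counts in the tumors and 0.000343% to 0.000444% in the cultures. Tumor 1 had the lowest level for 167 of them and tumor 2 the highest for 156. The lowest tumor value was 5.01 CPM for Mfap2 and 5.06 CPM for Igfbp2, just inside the rule, and 4.95 CPM for Lair1 and for Foxs1, just outside it. The number of genes was 297 without tumor 1 and 85 or 599 when at least 10 or at least 1 CPM was asked for.

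Collagen, MHC class II and complement genes led the set by CPM. Col1a2, the second chain of type I collagen, had 463, 1347 and 831 CPM in the tumors and 3 counts over the cultures, a ratio of 18454 (95% counting interval 6314 to 89487). Postn, the matrix protein periostin made by activated fibroblasts, had 226, 533.5 and 333 CPM in the tumors and no count in the cultures. It was at least 7267-fold higher, taking 3 counts over the cultures as the floor. Igfbp3, a carrier protein of insulin-like growth factors, had 345, 345 and 295 CPM in the tumors, against 1 count over the cultures. Unlike most of the set it was nearly even across the tumors.

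The complement gene C1qa had 102, 159 and 133 CPM in the tumors and no count in the cultures, and was at least 2621-fold higher. C1qc was at least 1809-fold higher, and C1qb had 1 count over the cultures. These genes encode the chains of C1q, the recognition part of the classical complement pathway, which tissue macrophages make. The muscle myosin gene Myh1 had 25.54, 122 and 229 CPM in the tumors and no count in the cultures. Its tumor values differed more from each other than those of the other 11 genes, and its call (adjusted p = 0.0276) ended without a low-count filter, with voom and without tumor 1 or tumor 2 (adjusted p = 0.0575 to 0.222). Col5a2, Fstl1, H2-Ab1, H2-Aa and H2-Eb1 complete the 12 genes with the highest mean CPM.

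**Figure D1:**
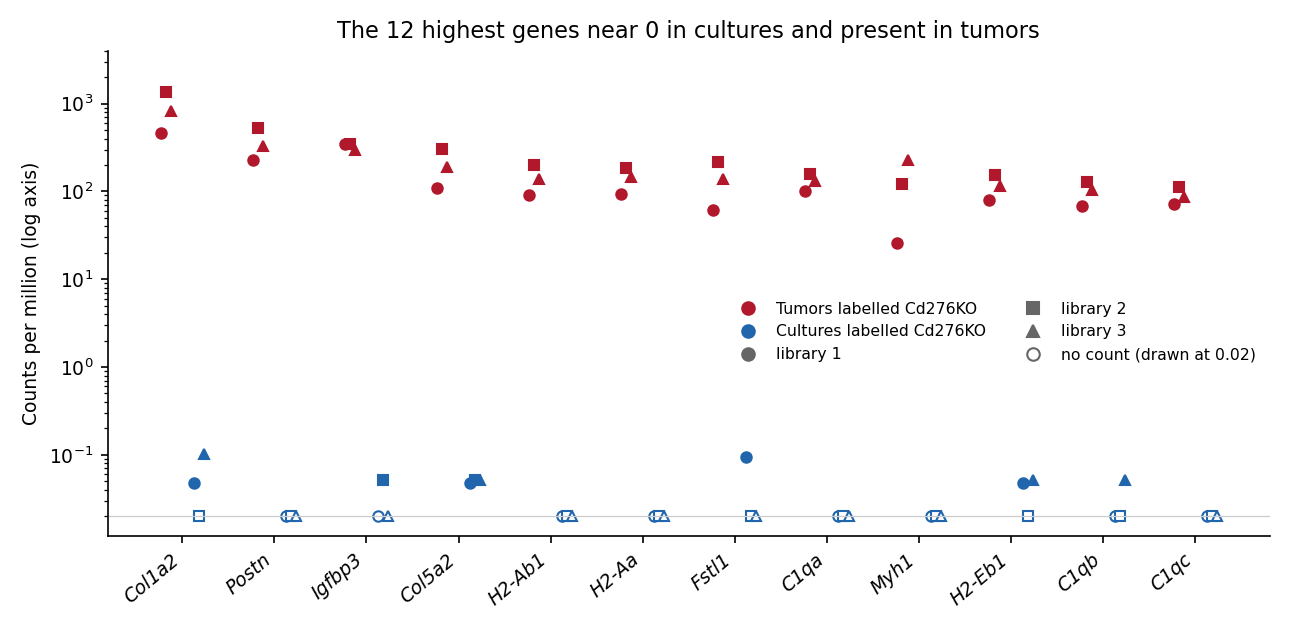
CPM (log axis) of the 12 genes with the highest tumor level among those near 0 in the cultures. Red marks are the 3 tumors and blue marks the 3 cultures labelled Cd276KO, the marker shape is the library number, and open marks are libraries with no count. Tumor values lie between 25.54 and 1347 CPM, and tumor 1 is the lowest for most genes.

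Of the 186 genes, 140 had at most 3 counts in the control cultures as well, and 137 had at least 5 CPM in each control tumor. The median over the genes of the mean level was 16.57 CPM in the tumors and 21.77 CPM in control tumors. Their share of counts was 1.92%, 0.907% and 0.425% in the control tumors. The 2 sets of tumors thus overlap in this sum, and the control tumors spread more widely. The fixed lists of cell types hold 33 of the 186 genes, among them 10 of the macrophage list, 6 of the fibroblast list, 5 of the mast cell list and 3 each of the endothelial, dendritic cell and striated muscle lists. The complement list holds 7 and the MHC class II list 4. No list used here holds the other 132.

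Macrophage and monocyte genes were higher in the tumors for 22 of the 24 members of that list, all of which were tested, with a median log2 fold change of 9.22 beside 0.08 over all genes. With members at 0 in the cultures set to their bound, the median was 8.24. The summed level was 1192 to 2127 CPM in the tumors and 123 to 132 CPM in the cultures. Lyz2, the lysozyme of myeloid cells, had 226, 462 and 378 CPM in the tumors and 0.0477, 0.154 and 0.0516 CPM in the cultures (log2 fold change 11.81, SE 0.5, adjusted p = 2.35e-06). Apoe, a lipid carrier abundant in macrophages, had 246, 417 and 327 CPM in the tumors and 3.25, 4.76 and 3.4 CPM in the cultures (6.3, SE 0.24). Csf1r, the receptor of the macrophage growth factor CSF1, was at 35.8, 81.3 and 66 CPM in the tumors and at most 0.155 CPM in the cultures. In each of these genes tumor 1 was lowest and tumor 2 highest, and no tumor overlapped a culture.

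The members of the macrophage list that were not called are Cd14 and Mrc1, which the cultured cells also carried. Mrc1, the mannose receptor found on many tissue macrophages, had 54.1, 141 and 107 CPM in the tumors and 56.6, 50.9 and 53.1 CPM in the cultures. Tumor 1 lay within the range of the cultures and the other tumors above it (log2 fold change 0.77, SE 0.32, adjusted p = 0.0693). Without tumor 1 the gene was called higher (adjusted p = 1.37e-05), as it was with upper-quartile scaling, with voom, with a replicate block and in fits of 12 or 18 libraries. Cd14, a co-receptor for bacterial lipopolysaccharide, averaged 88.7 CPM in the tumors and 65.5 CPM in the cultures (adjusted p = 0.0797). Both genes were above 50 CPM in every culture. The list of alternatively activated macrophage genes had 9 of 10 tested members higher (of 12) and none lower. Among them Cd163, a scavenger receptor, had 7.51, 54 and 32.7 CPM in the tumors and at most 0.143 CPM in the cultures.

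MHC class II genes encode the molecules with which dendritic cells, macrophages and B cells present peptides to CD4 T cells. All 9 tested members of the list of 10 were higher in the tumors, with a median log2 fold change of 9.8, or 8.24 with members at 0 set to their bound. The summed level was 612 to 1144 CPM in the tumors and 1.485 to 2.17 CPM in the cultures. H2-Ab1 had 89.9, 201 and 138 CPM in the tumors and no count in the cultures, and was at least 2855-fold higher. H2-Aa had 94.3, 185 and 144 CPM in the tumors and no count in the cultures, and was at least 2821-fold higher. H2-Eb1 had 79.1, 155 and 115.5 CPM in the tumors and 2 counts over the cultures, a ratio of 3596 (95% counting interval 995.2 to 29701). Cd74, the invariant chain that guides class II molecules, had 309, 526 and 450 CPM in the tumors and at most 0.155 CPM in the cultures. Ciita, the transactivator that class II transcription depends on, averaged 10.2 CPM in the tumors and 0.0502 CPM in the cultures. The chains named here, the invariant chain and the transactivator were thus at most 0.155 CPM in each culture. Cd74, with 5 counts over the cultures, was above the limit of 3 for near 0.

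The promoters of 2 of these genes are shown because class II genes are known for a shared upstream arrangement that ends in a Y box. Each window is 300 bases around the RefSeq gene start (GRCm38.p6) and is written 5′ to 3′ on the strand of the gene, with matches to the Y box letters CTGATTGG in capitals. The H2-Aa window is chr17:34287774-34288073 on the minus strand and the H2-Eb1 window is chr17:34305617-34305916 on the plus strand.
H2-Aa: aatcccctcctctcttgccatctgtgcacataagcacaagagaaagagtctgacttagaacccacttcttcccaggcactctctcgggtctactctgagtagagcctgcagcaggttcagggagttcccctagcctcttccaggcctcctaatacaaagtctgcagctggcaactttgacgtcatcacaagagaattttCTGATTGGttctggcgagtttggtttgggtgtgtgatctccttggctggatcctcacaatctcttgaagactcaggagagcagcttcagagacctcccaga
H2-Eb1: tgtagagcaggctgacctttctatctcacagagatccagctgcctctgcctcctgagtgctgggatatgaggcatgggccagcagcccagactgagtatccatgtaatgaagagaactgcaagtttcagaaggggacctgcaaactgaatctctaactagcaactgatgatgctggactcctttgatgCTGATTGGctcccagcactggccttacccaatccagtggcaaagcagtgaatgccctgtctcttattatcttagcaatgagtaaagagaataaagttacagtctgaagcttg
The match starts 51 bases before the gene start in H2-Aa and 62 bases before it in H2-Eb1. On either strand these letters are in 1346 of 32851 promoter windows (4.1%) and in 3 of the 7 class II list genes that the promoter table holds, the other being H2-Oa. Of the 6 of these genes that were tested, the 2 with the letters and the 4 without them were all higher in the tumors. A match is a description of the sequence and not a measured site.

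Chemokines, the secreted proteins that direct leukocyte movement, went both ways. Of 20 tested members (of 24), 13 were higher and 5 lower, with a median log2 fold change of 5.68, or 5.64 with members at 0 set to their bound. Of all genes tested, 41.2% were called higher and 34.5% lower. Ccl2, the main ligand that draws monocytes, had 4.4, 6.9 and 6 CPM in the tumors and 0.0955, 0.205 and 0 CPM in the cultures (log2 fold change 5.63, SE 0.49, adjusted p = 1.03e-05). Ccl6 had 69.9, 155 and 129 CPM in the tumors and 0.143 to 0.155 CPM in the cultures (9.42, SE 0.53). Ccl8 had 13, 71.35 and 45.65 CPM in the tumors and no count in the cultures, and was at least 864.5-fold higher, but its call (adjusted p = 0.018) ended without a low-count filter (0.0903) and without tumor 2 (0.119). The 5 lower members were Cxcl1, Cxcl2, Cxcl3, Cxcl5 and Cxcl10. The first 4 of these are ligands that act on neutrophils through CXCR2. Cxcl5 averaged 9.16 CPM in the tumors and 24.8 CPM in the cultures (log2 fold change -1.58, SE 0.28, adjusted p = 0.0013). The members named here and in the lists below include some picked after their values were seen.

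Ccr2, the receptor of Ccl2 on monocytes, had 6.79, 37 and 25 CPM in the tumors and no count in the cultures, and was at least 457.6-fold higher. Its tumor values differed widely, and the call (adjusted p = 0.0112) ended without a low-count filter (0.0923) and without tumor 2 (0.0893). All 7 tested chemokine receptors of 12 were higher, beside 41.2% of all genes, and 11 in the 12-library fit. Ackr3, a receptor that takes up Cxcl12, had 58.4, 82 and 55.6 CPM in the tumors and 7.4, 7.48 and 7.94 CPM in the cultures (log2 fold change 2.97, SE 0.15).

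Mast cell genes were higher for 9 of the 9 members, with a median log2 fold change of 8.87. Mcpt4, a mast cell chymase, had 21.6, 53.1 and 49.05 CPM in the tumors and no count in the cultures, and was at least 823.6-fold higher. Tpsab1, a mast cell tryptase, had 27.6, 68.7 and 57.9 CPM in the tumors and at most 0.0955 CPM in the cultures (9.32, SE 0.62). Dendritic cell genes were higher for 11 of 12 tested members (of 13). Itgax, an integrin of dendritic cells and some macrophages, had 25.4, 36.2 and 30.5 CPM in the tumors and 2 counts over the cultures. The remaining member, Cacnb3, averaged 27.1 CPM in the tumors and 32.9 CPM in the cultures, and its call of lower (adjusted p = 0.0113) ended in 5 alternatives, among them upper-quartile scaling and total counts (0.0937 and 0.0862).

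Of 19 T cell genes 5 passed the filter, and Cd4, Zap70, Cd28 and Thy1 were called higher. This count of 4 was 9 without tumor 1, 7 to 8 without single cultures, 10 in the 12-library fit and 14 with no low-count filter. Thy1 is also on the fibroblast list and is carried by fibroblasts and vessel-associated cells, and it had 59.2, 111 and 80.7 CPM in the tumors, against 1 count over the cultures. Cd4, which some macrophages and dendritic cells carry too, had 1.28, 2.725 and 2.075 CPM in the tumors and 0.143, 0.256 and 0.206 CPM in the cultures (3.17, SE 0.41). Cd3e had 0.111, 0.511 and 0.98 CPM in the tumors and Cd8a 0.0556, 0 and 0.634 CPM, and both were too low to test. The 226 T cell receptor segments together had 13.2, 13.45 and 17.6 CPM in the tumors and 0.859, 1.54 and 1.03 CPM in the cultures, with 9.63, 3.66 and 6.67 CPM in control tumors. This sum was higher in every tumor than in every culture and every control tumor, an order that was not tested. The summed T cell list, which includes Thy1, did not share it, with 69, 127 and 102 CPM in the tumors and 223, 134 and 76.2 CPM in control tumors. Of 14 genes of natural killer cells and cytotoxic lymphocytes, 1 was tested, and up to 5 were called higher in alternatives, the 5 with no low-count filter. The tested gene, Eomes, was lower in the tumors, with 9.29, 7.11 and 8.65 CPM, against 39.1, 36.1 and 42.2 CPM in the cultures (-2.37, SE 0.12). Ncr1, Gzmb and Ifng averaged at most 0.2035 CPM in the tumors. Of 10 B and plasma cell genes only Xbp1, which secretory cells of many kinds express, passed the filter.

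Neutrophil genes passed the filter for 6 of 16 members, and 5 of these were higher, or 8 without culture 1, 2 or 3 or without tumor 2. Mmp9, a gelatinase of neutrophils and macrophages, had 115, 138 and 151 CPM in the tumors and 0.102 to 0.155 CPM in the cultures (log2 fold change 9.78, SE 0.17, adjusted p = 6.3e-09). The defining markers S100a8 and S100a9 averaged 1.4 and 1.81 CPM in the tumors and were too low to test, and Ly6g was lower in the tumors, with 1.5, 1.92 and 1.09 CPM, against 10.5, 10.1 and 10.9 CPM in the cultures. The hemoglobin genes Hba-a1 and Hbb-bs averaged 0.878 and 1.45 CPM in the tumors. Of 3 tested platelet genes (of 5), 2 were higher and 1, Ppbp, lower. The platelet factor gene Pf4, which some macrophages also express, had 15.2, 11.2 and 17.6 CPM in the tumors and 1.24, 0.82 and 1.08 CPM in the cultures (3.66, SE 0.24). Ppbp had 1.5, 2.21 and 3 CPM in the tumors and 5.68, 4.05 and 4.69 CPM in the cultures (-1.24, SE 0.26). Its call ended in the fits of 12 and 18 libraries (adjusted p = 0.0897 and 0.0718).

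**Figure D2:**
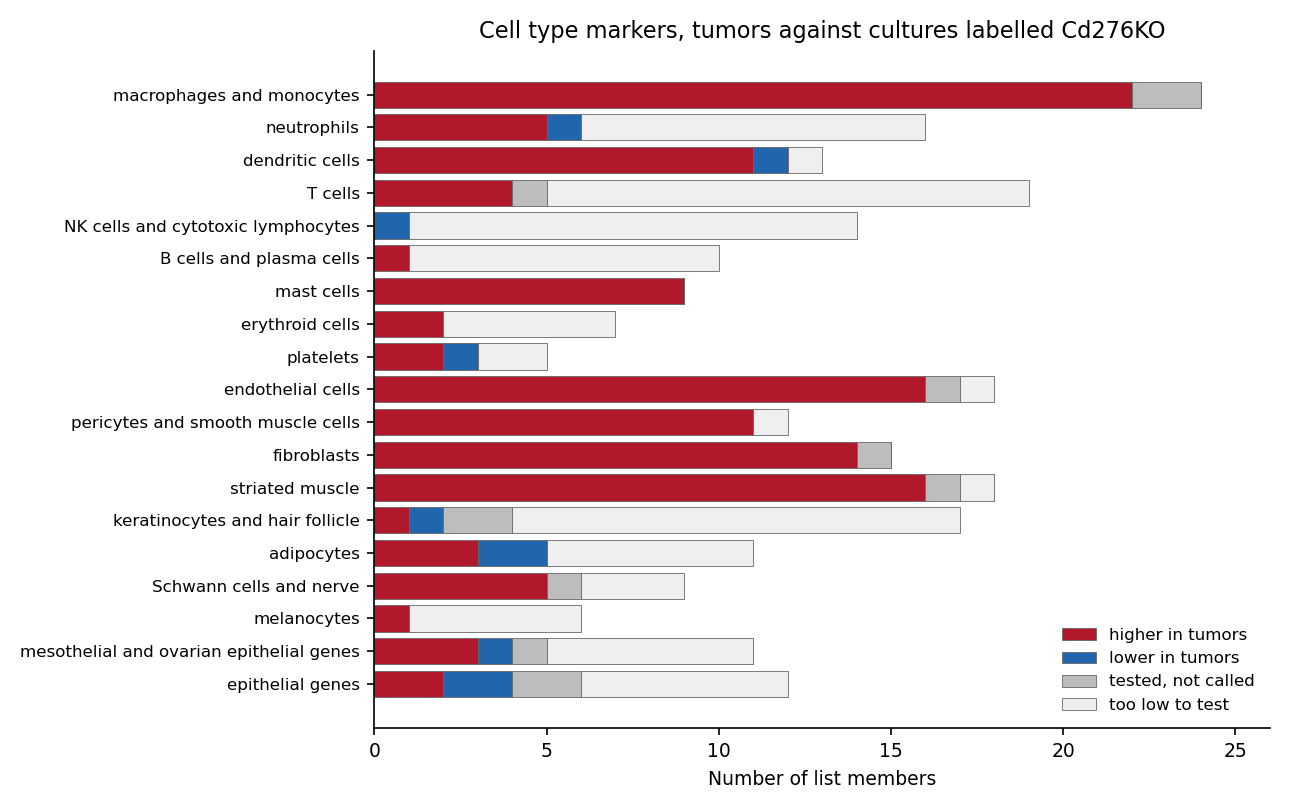
Number of members of each of the 19 cell type lists, by call in the tumors against the cultures labelled Cd276KO. Red is higher in tumors, blue lower in tumors, grey tested and not called, and light grey too low to test. Macrophage, mast cell, endothelial, pericyte, fibroblast and striated muscle lists are mostly red, and most lymphocyte members were too low to test.

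Vessel genes were higher in the tumors for 16 of 17 tested endothelial members (of 18), with a median log2 fold change of 6.98, or 6.73 with members at 0 set to their bound. Plvap, which forms the diaphragms of small vessel openings, had 324, 303 and 306 CPM in the tumors and 0.43, 0.461 and 0.619 CPM in the cultures (9.13, SE 0.12, adjusted p = 2.86e-09). Pecam1, an adhesion molecule of endothelial junctions, had 53.8, 74.5 and 67.5 CPM in the tumors and 1.77, 1.33 and 2.11 CPM in the cultures (5.09, SE 0.16). Plvap was nearly even across the tumors. Flt1, a receptor of VEGF, was not called, with a mean of 120 CPM in the tumors and 110 CPM in the cultures. Pericyte and smooth muscle genes were higher for all 11 tested members of 12. Rgs5, a pericyte marker, had 259, 406 and 338 CPM in the tumors and 0.143, 0.0512 and 0.103 CPM in the cultures (11.48, SE 0.28). Pdgfrb, the receptor through which vessels recruit pericytes, had 132, 214 and 158 CPM in the tumors and at most 0.206 CPM in the cultures (9.94, SE 0.32).

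Fibroblast genes were higher for 14 of 15 members, all tested, with a median log2 fold change of 9.68, or 9.43 with members at 0 set to their bound. Col1a1 had 526, 1452 and 948 CPM in the tumors and 0.477, 0.461 and 0.258 CPM in the cultures (11.08, SE 0.62, adjusted p = 1.26e-05). Col3a1 had 2289, 3123 and 2963 CPM in the tumors, but the cultured cells also expressed it, at 170, 173 and 167 CPM (3.9, SE 0.12). The single member not called, Dpt, had 1.56, 41.4 and 27 CPM in the tumors and no count in the cultures. As with the macrophage genes, tumor 1 was lowest in most of these genes.

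Striated muscle genes were higher for 16 of 17 tested members (of 18), with a median log2 fold change of 8.36, or 8.195 with members at 0 set to their bound, and they varied most between tumors of the lists summed. Their summed level was 181, 1210 and 1284 CPM in tumors 1, 2 and 3 and 2.96 to 3.585 CPM in the cultures. The control tumors had 6.19 to 197 CPM. Acta1, the actin of skeletal muscle fibers, had 59.4, 393 and 393 CPM in the tumors and 0.0955 to 0.103 CPM in the cultures (11.22, SE 1.53, adjusted p = 0.0016). The call of Acta1 ended with voom (0.0568), as did that of the creatine kinase gene Ckm (0.173), and 11 members were called under voom. How much skin muscle each tumor piece held is not given in the sources used here, and its part in the results was not tested.

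Over the 19 cell type lists, the summed level was lowest in tumor 1 for 13 and in tumor 2 for 6, and highest in tumor 2 for 9, in tumor 3 for 6 and in tumor 1 for 4. Mast cell, complement and MHC class II sums were 2.61, 2.25 and 1.87 times as high in tumor 2 as in tumor 1. Over all members of the cell type lists, taken singly, 244 genes, 200 averaged under 0.5 CPM in the cultures and 20 at least 10 CPM. In the tumors 152 averaged at least 1 CPM and 116 at least 5 CPM.

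**Figure D3:**
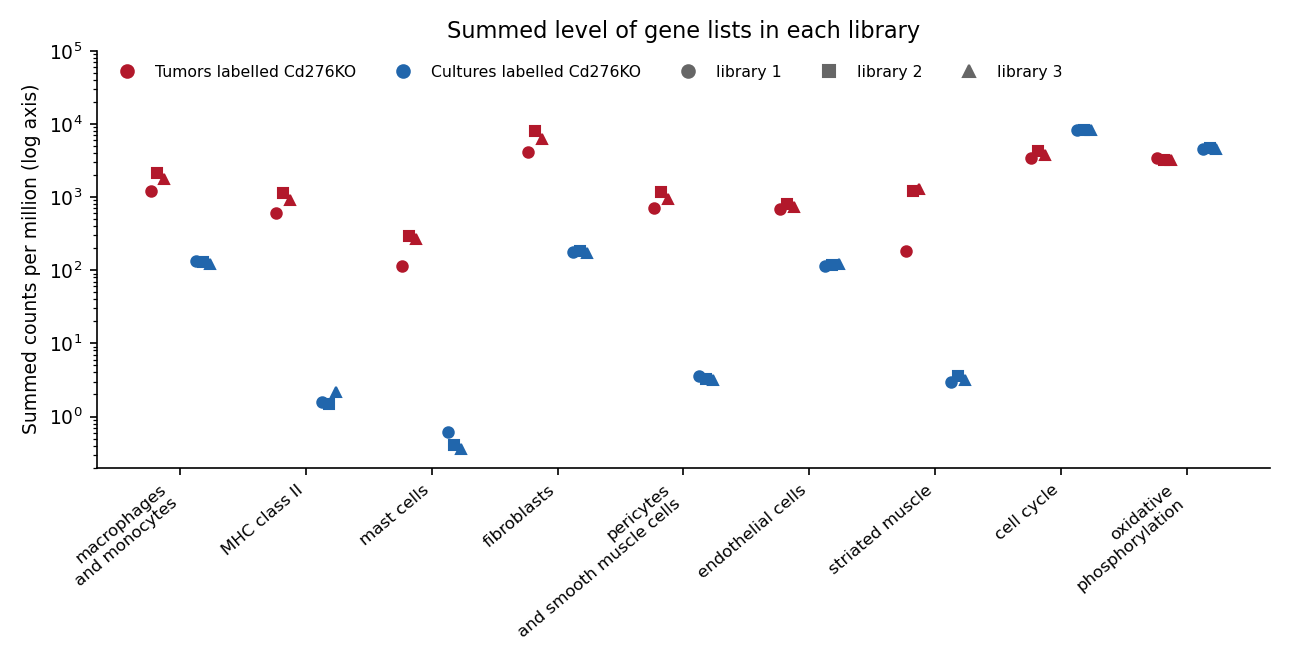
Summed CPM (log axis) of the members of 9 gene lists in each library. Red marks are the 3 tumors and blue marks the 3 cultures labelled Cd276KO, and the marker shape is the library number. Sums of the cell type and MHC class II lists are higher in every tumor than in every culture, with striated muscle at 181 to 1284 CPM in the tumors, while the cell cycle and oxidative phosphorylation sums are lower in every tumor.

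The cultures were checked against epithelial and ovarian markers, since the labels call them ovarian cancer cells. The keratins Krt8, Krt18 and Krt19, structural proteins of simple epithelia, and mesothelin (Msln), a surface protein common in ovarian cancer, were present. Krt8 had 1753, 1588 and 1617 CPM in the tumors and 2406, 2502 and 2464 CPM in the cultures (log2 fold change -0.7, SE 0.09, adjusted p = 0.000116). Krt19 fell likewise, with 1228, 843 and 1046 CPM in the tumors and 1624, 1794 and 1791 CPM in the cultures (-0.87, SE 0.15). Krt18 was not called, with 1317, 984 and 1167 CPM in the tumors and 1137, 1176 and 1173 CPM in the cultures. The 3 keratins so stayed abundant in the tumors. Msln had 72.1, 91.8 and 76.7 CPM in the tumors and 44.7, 49.6 and 44.1 CPM in the cultures (0.66, SE 0.09).

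Other defining markers were absent or nearly so. Pax8, a transcription factor of Müllerian epithelium, had no count in the tumors or the cultures. Wt1 averaged 0.152 CPM in the tumors and 0.0331 CPM in the cultures, and Epcam 0.306 CPM in the tumors and 0 in the cultures. The junction gene Cdh1 was higher in the tumors, with 1.78, 3.28 and 2.075 CPM, against 0.43, 0.307 and 0.464 CPM in the cultures (2.43, SE 0.34). Of 17 skin genes, the keratinocyte genes Krt5 and Krt14 averaged 0.0371 and 0.0384 CPM in the tumors, and Flg, Dsg1a and Krtdap had no count there. Of the 4 skin genes tested, 1 was higher and 1, Fabp5, lower. The melanocyte enzymes Tyr, Tyrp1 and Dct had no count in the tumors. Adipocyte genes passed the filter for 5 of 11 members, of which 3 were higher (6 without tumor 1 and 1 with voom) and 2 lower. The lower call of Lpl ended in 4 alternatives (adjusted p = 0.0612 to 0.175). Schwann cell and nerve genes passed for 6 of 9, of which 5 were higher.

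Matrix genes were higher in the tumors nearly throughout. All 15 collagens of the list were called higher (median log2 fold change 6.99), and so were 16 of 17 glycoproteins and proteoglycans (6.86) and 15 of 16 tested proteases and inhibitors of 17 (3.33). Some of these genes were abundant in the cultures too. Fn1, fibronectin, had 5259, 6991 and 5632 CPM in the tumors and 1328, 1572 and 1451 CPM in the cultures (1.9, SE 0.13, adjusted p = 2.17e-06). Bgn, the proteoglycan biglycan, had 2467, 2878 and 2678 CPM in the tumors and 767, 810 and 768 CPM in the cultures (1.64, SE 0.08). Col18a1, a basement membrane collagen, had 3145, 3989 and 3532 CPM in the tumors and 1496, 1649 and 1544 CPM in the cultures (1.05, SE 0.1). In these abundant genes the tumors differed from each other by less than from the cultures.

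Among the proteases and inhibitors, Plat, tissue plasminogen activator, had 339, 429 and 449 CPM in the tumors and 4.77, 4.97 and 4.49 CPM in the cultures (6.28, SE 0.12, adjusted p = 7.36e-09). Mmp14, a membrane-bound collagenase that activates Mmp2, had 343, 524 and 390 CPM in the tumors and 80.9, 81.3 and 81.4 CPM in the cultures (2.23, SE 0.13). The exceptions were Nid1, which links laminin and type IV collagen, and Plaur, the urokinase receptor. Nid1 had 661, 937 and 737 CPM in the tumors and 965, 1046 and 990 CPM in the cultures (-0.5, SE 0.11, adjusted p = 0.00318), a call that ended in the 12-library fit (0.0555). Plaur averaged 229 CPM in the tumors and 278 CPM in the cultures (-0.41, SE 0.06), and its call ended in the 12-library fit too.

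Cell cycle genes were lower in the tumors for all 32 members of the list, all tested, with a median log2 fold change of -1.21 beside 0.08 over all genes. Between 31 and 32 were called lower in each of 16 alternatives. Their summed level was 3417 to 4314 CPM in the tumors and 8272 to 8336 CPM in the cultures. Rrm2, a subunit of ribonucleotide reductase that supplies DNA precursors, had 124, 155 and 145 CPM in the tumors and 639, 611 and 605 CPM in the cultures (-2.26, SE 0.08, adjusted p = 1.03e-07). Ccnd1, cyclin D1, had 456, 531 and 478 CPM in the tumors and 1004, 1027 and 1021 CPM in the cultures (-1.19, SE 0.07). Top2a, the topoisomerase of dividing cells, had 348, 498 and 421 CPM in the tumors and 676, 655 and 672 CPM in the cultures (-0.8, SE 0.11). Mcm2 and Mcm5, parts of the replicative helicase, fell by 1.82 and 1.92 on the log2 scale. The share of cancer cells in each tumor was not measured, so a lower level per cancer cell and a smaller share of cancer cells cannot be told apart.

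Oxidative phosphorylation genes were lower for 17 of 20 members and higher for 1, Cox6c, with a median of -0.5. Across the alternatives 15 to 19 were called lower. Upper-quartile scaling gave 15. Of all genes tested, 34.5% were called lower and 41.2% higher. Atp5a1, a subunit of ATP synthase, had 402, 405 and 388 CPM in the tumors and 648, 673 and 646 CPM in the cultures (-0.85, SE 0.07, adjusted p = 5.46e-06). Uqcrc1, of complex III, fell by 0.9 on the log2 scale (SE 0.07). Heat shock chaperones were lower for 8 of 11 members and higher for 2, with a median of -0.67. Hspa8, the constitutive chaperone of the family, had 1967, 1411 and 1643 CPM in the tumors and 2884, 2827 and 3035 CPM in the cultures (-0.93, SE 0.14). Hsph1 and Hspd1 averaged 112 and 608 CPM in the tumors and 351 and 1469 CPM in the cultures.

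Glycolysis and hypoxia-responsive genes were higher for 17 of 24 members, all tested, and lower for 1, Pgam1, with a median log2 fold change of 1.25. Of all genes tested, 41.2% were called higher and 34.5% lower. Bnip3, a mitochondrial protein induced by low oxygen, had 266, 163 and 260 CPM in the tumors and 14.3, 15.5 and 13.1 CPM in the cultures (3.88, SE 0.23, adjusted p = 6.26e-06). Ndrg1 had 537, 318 and 490 CPM in the tumors and 34.9, 36.5 and 38.5 CPM in the cultures (3.49, SE 0.22). Slc2a1, the glucose transporter GLUT1, had 432, 388 and 424 CPM in the tumors and 120, 126 and 118 CPM in the cultures (1.64, SE 0.08). Among the glycolytic enzymes, Aldoa rose by 0.68 (SE 0.15) and Pgk1 by 0.54 (SE 0.12) on the log2 scale. Gapdh, Eno1, Pkm, Ldha, Hk1 and Hk2 were not called, with log2 fold changes of -0.15 to 0.16. Here tumor 2 was the lowest of the tumors, the reverse of its place in the macrophage and fibroblast lists, and without tumor 1 the members called lower were 5.

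Angiogenic ligands were higher for 8 of 11 members and lower for 2, Vegfb and Apln, with a median of 1.62. The shares over all genes were 41.2% higher and 34.5% lower. Vegfa, the main growth factor of vessel sprouting, had 265, 224 and 265 CPM in the tumors and 49.1, 47 and 50.6 CPM in the cultures (2.23, SE 0.09, adjusted p = 2.11e-07). Pdgfb, the ligand that recruits pericytes, had 75.9, 99.4 and 87.3 CPM in the tumors and 8.21, 9.63 and 8.25 CPM in the cultures (3.2, SE 0.11). Ddit4 is not a ligand but an inhibitor of mTORC1 signalling that responds to low oxygen and other stresses. It had 179, 138 and 163 CPM in the tumors and 7.54, 10.2 and 8.82 CPM in the cultures (4.04, SE 0.15). Vegfa, Pdgfb and Ddit4 were expressed by the cultured cells, and for each of them every tumor lay above every culture.

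**Figure D4:**
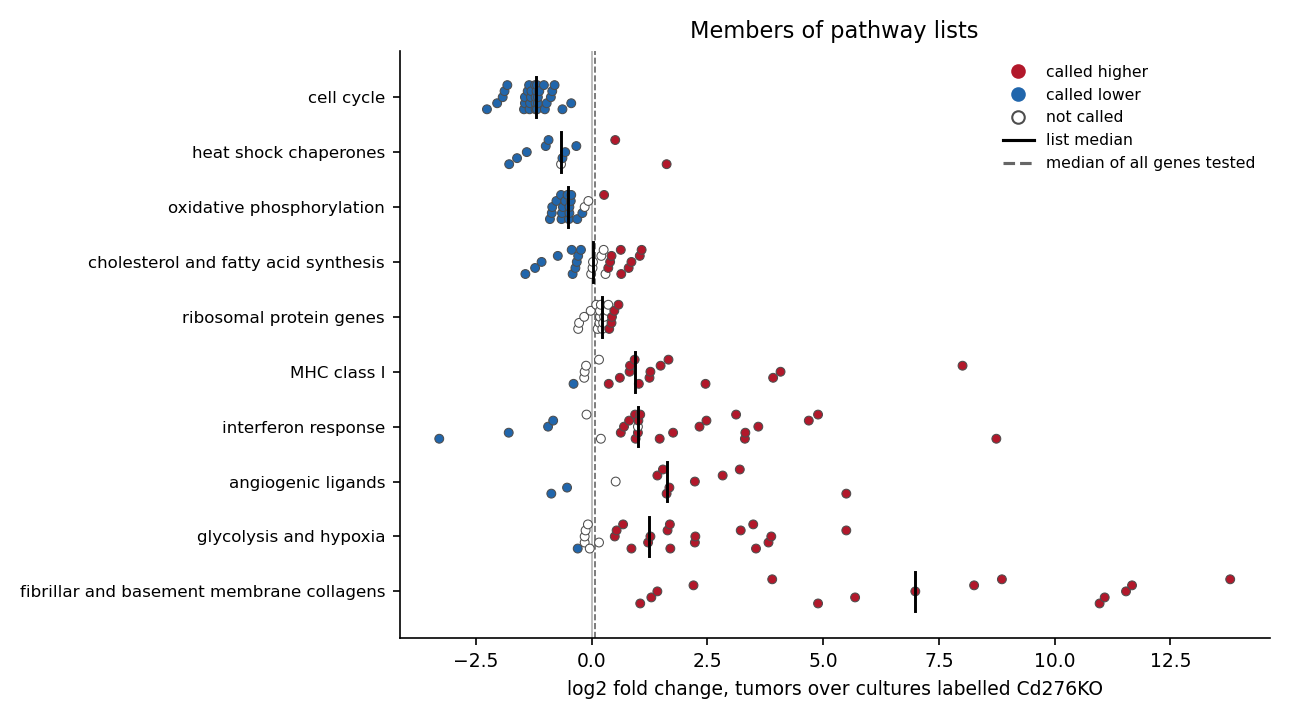
Log2 fold change of tumors over cultures labelled Cd276KO for the tested members of 10 pathway lists. Red marks were called higher, blue marks lower and open marks not called, black bars are list medians and the dashed line is the median of all genes tested (0.08). The cell cycle list lies wholly below 0, with a median of -1.21, and the collagen list wholly above it, with a median of 6.99.

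MHC class I genes, which present peptides to CD8 T cells, were higher for 14 of 19 members, all tested, and lower for 1, Psmb10, with a median of 0.93. The shares over all genes were 41.2% higher and 34.5% lower. B2m, the invariant chain of class I, had 851, 851 and 826 CPM in the tumors and 513, 490 and 512 CPM in the cultures (0.61, SE 0.07, adjusted p = 4.83e-05). H2-D1 had 155, 181 and 186 CPM in the tumors and 91.5, 93.3 and 84.6 CPM in the cultures (0.82, SE 0.07). H2-K1 had 182, 206.5 and 201 CPM in the tumors and 136, 139 and 142.5 CPM in the cultures (0.37, SE 0.06). The calls of B2m, H2-D1 and H2-K1 ended in the 12-library fit (0.0673, 0.0555 and 0.445), in which 11 members were higher. That of H2-K1 also ended in the 18-library fit (0.357). The immunoproteasome subunit Psmb8 was near 0 in the cultures, with 8.57, 12.7 and 12.05 CPM in the tumors and 2 counts over the cultures. Class I thus differed by amounts far smaller than class II.

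Interferon response genes were higher for 19 of 26 tested members (of 27), with a median of 1, and lower for 4, Ifit1, Oas3, Oasl1 and Cxcl10. The shares over all genes were 41.2% higher and 34.5% lower. Usp18, which limits type I interferon signalling, had 28.4, 27.3 and 26.3 CPM in the tumors and 5.83, 4.51 and 4.49 CPM in the cultures (2.33, SE 0.12, adjusted p = 7.16e-07). Bst2, the virus-tethering protein tetherin, had 87.4, 80 and 68 CPM in the tumors and 35, 39.4 and 36.7 CPM in the cultures (0.95, SE 0.11). Cxcl10, a ligand that draws T cells, went the other way, with 1.17, 0.596 and 1.84 CPM in the tumors and 11.6, 8.76 and 11.1 CPM in the cultures (-3.29, SE 0.33). The list was therefore not uniform in direction.

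The promoters of Bst2 and Cxcl10 are shown because members that differ in direction hold the same kind of element. Capitals mark matches to the interferon stimulated response element searched as GAAA, any 2 bases and GAAA, in the same RefSeq windows (GRCm38.p6) and on the strand of the gene. The Bst2 window is chr8:71537423-71537722 and the Cxcl10 window chr5:92348840-92349139, both on the minus strand.
Bst2: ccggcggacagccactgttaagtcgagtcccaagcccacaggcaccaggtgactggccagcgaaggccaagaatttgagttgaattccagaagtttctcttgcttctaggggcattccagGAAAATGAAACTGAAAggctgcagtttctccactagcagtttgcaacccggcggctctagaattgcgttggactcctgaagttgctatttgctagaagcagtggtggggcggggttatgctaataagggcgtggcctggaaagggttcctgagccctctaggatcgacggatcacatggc
Cxcl10: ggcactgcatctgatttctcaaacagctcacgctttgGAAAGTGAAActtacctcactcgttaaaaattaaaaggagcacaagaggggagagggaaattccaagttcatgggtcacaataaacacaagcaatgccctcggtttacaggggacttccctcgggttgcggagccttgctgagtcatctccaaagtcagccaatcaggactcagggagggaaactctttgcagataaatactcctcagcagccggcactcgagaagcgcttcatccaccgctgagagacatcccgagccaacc
Bst2 holds 2 overlapping matches, the first 130 bases before the gene start, and Cxcl10 holds 1, which starts 213 bases before it. On either strand the letters are in 1131 of 32851 promoter windows (3.44%) and in 13 of the 22 interferon list genes that the promoter table holds. Of those 13 genes, 8 were higher in the tumors and 3 lower. Of the 9 without the letters, 7 were higher and 1 lower.

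Immune checkpoint genes, the list that Cd276 belongs to, were higher for 9 of 13 tested members (of 16) and lower for 4, Havcr2, Tigit, Lgals9 and Ido1. Over all genes 41.2% were called higher and 34.5% lower. The call of Lgals9 ended in 7 alternatives. Vsir, the myeloid checkpoint protein VISTA, had 20.6, 36.2 and 27.1 CPM in the tumors and 1 count over the cultures. Cd274, which encodes PD-L1, had 6.34, 6.09 and 8.93 CPM in the tumors and 1.1, 1.024 and 0.67 CPM in the cultures (2.79, SE 0.26, adjusted p = 1.37e-05). The T cell checkpoints Pdcd1 and Ctla4 averaged 0.403 and 0.287 CPM in the tumors and were too low to test. Among cytokines, 9 of 13 tested members (of 18) were higher and 2 lower. Il1rn, the natural antagonist of the interleukin-1 receptor, was lower in the tumors, with 1778, 1150 and 1553 CPM, against 3240, 2985 and 3152 CPM in the cultures (-1.19, SE 0.16, adjusted p = 0.000161). Complement genes were higher for all 15 tested members of 16.

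Lists of cell state held members called in both directions, as did all genes tested (41.2% higher and 34.5% lower). The p53 and cholesterol splits below are near these shares, so nothing is read from them. Genes tied to epithelial-mesenchymal transition were higher for 9 of 12 members and lower for 3, namely Twist2, Vim and S100a4. Vim, vimentin, had 3580, 3051 and 3277 CPM in the tumors and 4463, 4784 and 4629 CPM in the cultures (-0.62, SE 0.11, adjusted p = 0.000743). Targets of p53 were higher for 7 and lower for 8 of 18 tested members (of 19). Ccng1 and Mdm2, which p53 induces, fell by 1.36 and 0.74 on the log2 scale, but over 2-fold 4 members were higher and 3 lower. Cholesterol and fatty acid synthesis genes were higher for 9 and lower for 10 of 25, and higher for 13 and lower for 5 with upper-quartile scaling. The sterol genes Hmgcs1 and Insig1 averaged 128 and 54.4 CPM in the tumors and 56.8 and 23.4 CPM in the cultures. The fatty acid genes Fasn and Scd1 went the other way, by -1.08 (SE 0.1) and -1.22 (SE 0.05).

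Of NF-kB targets, 10 of 17 tested members (of 19) were higher and 5 lower, beside 41.2% and 34.5% of all genes. The ATF4 split below is near these shares. Over 2-fold, 5 NF-kB targets were higher and 2 lower. Ptgs2, the inducible cyclooxygenase, was among the lower ones, with 17.2, 17.2 and 17.4 CPM in the tumors and 92.8, 86.6 and 75.7 CPM in the cultures (-2.43, SE 0.09). Of TGF-beta and BMP ligands and targets, 8 of 13 tested members (of 14) were higher and 3 lower, namely Id1, Id2 and Ltbp1. Of the ATF4 and unfolded protein response list, 6 of 17 were higher and 5 lower. The higher ones included Xbp1 (1.28, SE 0.09) and the lower ones the serine synthesis genes Psat1 (-1.89, SE 0.1) and Phgdh (-0.91, SE 0.08). Immediate early genes were higher for 10 of 12 tested members (of 14) and lower for 1, Fosl1, but 5 were higher in the 12-library fit, 6 without culture 2 and 5 without culture 3. Ribosomal protein genes were higher for 5 of 20 and lower for none, with 1 to 14 higher and 0 to 3 lower across the alternatives, so no direction is given for them.

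The 8 genes with the largest falls, among those with at least 20 CPM on average in the cultures, include secreted, membrane and RNA-binding proteins. Tff1, a secreted trefoil peptide of mucous epithelia, had 1.5, 0.468 and 1.27 CPM in the tumors and 43.4, 48.5 and 44.8 CPM in the cultures (-5.59, SE 0.26, adjusted p = 5.98e-07). Aqp5, a water channel of glandular epithelia, had 18.1, 13 and 15.8 CPM in the tumors and 564, 626 and 612 CPM in the cultures (-5.4, SE 0.14). Igf2bp1, a fetal RNA-binding protein, had 1.67, 1.06 and 0.922 CPM in the tumors and 42.1, 43.2 and 41.2 CPM in the cultures (-5.25, SE 0.17). None of these came close to overlapping. Nqo1, a quinone reductase of the oxidative stress response, had 4.62, 3.75 and 3.34 CPM in the tumors and 31.9, 29.5 and 29.7 CPM in the cultures (-3.09, SE 0.13). Acsm3 (-4.55), Lipn (-4.04) and the formin gene Fmn1 (-3.43) were also among them.

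Whether the tumor to culture difference depended on the label was tested as an interaction over the 12 HM-1 libraries. The difference under the Cd276KO label was set against that under the control label. Of 15623 genes tested, 443 were called (2.84%), with 268 larger (1.72%) and 175 smaller (1.12%). This count was 225 to 913 when single libraries were left out, with the 913 without control tumor 3. Cd276 did not pass (0.39 on the log2 scale, SE 0.2, adjusted p = 0.409). Ccl2 did not pass either (3.71, SE 1.21, adjusted p = 0.155), with 33.8, 24.1 and 140 CPM in control tumors and 18.5, 13.2 and 15.6 CPM in control cultures, but it passed without control tumor 3 (4.88, adjusted p = 0.000926). Mrc1 passed with a smaller difference under the Cd276KO label (-2.29, SE 0.4, adjusted p = 0.0112), and had 203, 142 and 136 CPM in control tumors and 15, 18 and 19.8 CPM in control cultures. Of the 186 genes near 0 in the cultures, 8 passed with a larger difference and 0 with a smaller one, beside 1.72% and 1.12% of all genes. These genes were chosen by values of 2 of the 4 groups in this test, so nothing is read from that split.

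A few genes were near 0 in the cultures labelled Cd276KO, yet expressed in control cultures and present in the tumors. Ckap4, a membrane protein of the endoplasmic reticulum (chromosome 10, 84526305 to 84534062, minus strand), had 24.2, 62.2 and 40.35 CPM in the tumors and no count in the cultures, and was at least 842.8-fold higher. It had 208, 101 and 157 CPM in control tumors and 110, 103 and 108 CPM in control cultures. Its mean in the tumors was 27.2% of that in control tumors. Trim44 had 7.18, 15.9 and 12.85 CPM in the tumors and 2 counts over the cultures, against 58.4, 39.9 and 47.7 CPM in control tumors and 27.7, 38.7 and 39.2 CPM in control cultures. Arhgap30 followed the same pattern, and so did Ivns1abp with 5 counts over the cultures, above the limit of 3 for near 0. The tumor means of Trim44, Arhgap30 and Ivns1abp were 24.6%, 20% and 28.7% of those in control tumors.

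Spint2, Perp and Xlr were also near 0 in these cultures and expressed in control cultures, but averaged at most 1.16 CPM in the tumors. Like Ckap4, Trim44, Arhgap30 and Ivns1abp, they were lower in every tumor labelled Cd276KO than in every control tumor. Spint2, a protease inhibitor of epithelia, had 0.612, 1.53 and 1.33 CPM in the tumors and 2 counts over the cultures, with 22.4, 27.95 and 104 CPM in control tumors and 40.7, 29.9 and 32.15 CPM in control cultures. Perp had at most 0.0576 CPM in the tumors and no count in the cultures, with 1.78, 2.91 and 35.3 CPM in control tumors and 18.5, 15.0 and 14.4 CPM in control cultures. Xlr had 0.223, 0.468 and 0.692 CPM in the tumors and no count in the cultures, with 7.08, 7.78 and 21.8 CPM in control tumors and 14.4, 11.6 and 9.8 CPM in control cultures. For Spint2, Perp and Xlr, control tumor 3 had the highest value of its group. Of 9 genes near 0 in these cultures that averaged at least 10 CPM in control cultures, Ckap4, Arhgap30 and Trim44 were above 5 CPM in each tumor and the other 6 were not. Which cells of the tumors these transcripts came from was not tested.

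The endothelial gene Plvap differed by label as well. Its 324, 303 and 306 CPM in the tumors stood against 69.4, 43.8 and 33.8 CPM in control tumors, with no more than 1.93 CPM in any culture (interaction 4.32, SE 0.45, adjusted p = 0.000516). Plvap was the single endothelial list member to pass, and Pecam1 did not pass (1.12, adjusted p = 0.33). Arg1, an enzyme of alternatively activated macrophages, had 24.65, 11.8 and 26 CPM in the tumors and 91.7, 117.5 and 203.5 CPM in control tumors, with at most 1.43 CPM in any culture (-4.14, SE 0.61, adjusted p = 0.00449). Aqp5 fell more under the Cd276KO label, with 56.5, 61.4 and 37.2 CPM in control tumors and 188, 167 and 154.5 CPM in control cultures (-3.56, SE 0.27). Il1rn fell less under it, with 247, 251 and 182 CPM in control tumors and 1241, 1255 and 1241 CPM in control cultures (1.39, SE 0.24, adjusted p = 0.00954). The plot of these genes in all 12 HM-1 libraries shows both kinds.

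**Figure D5:**
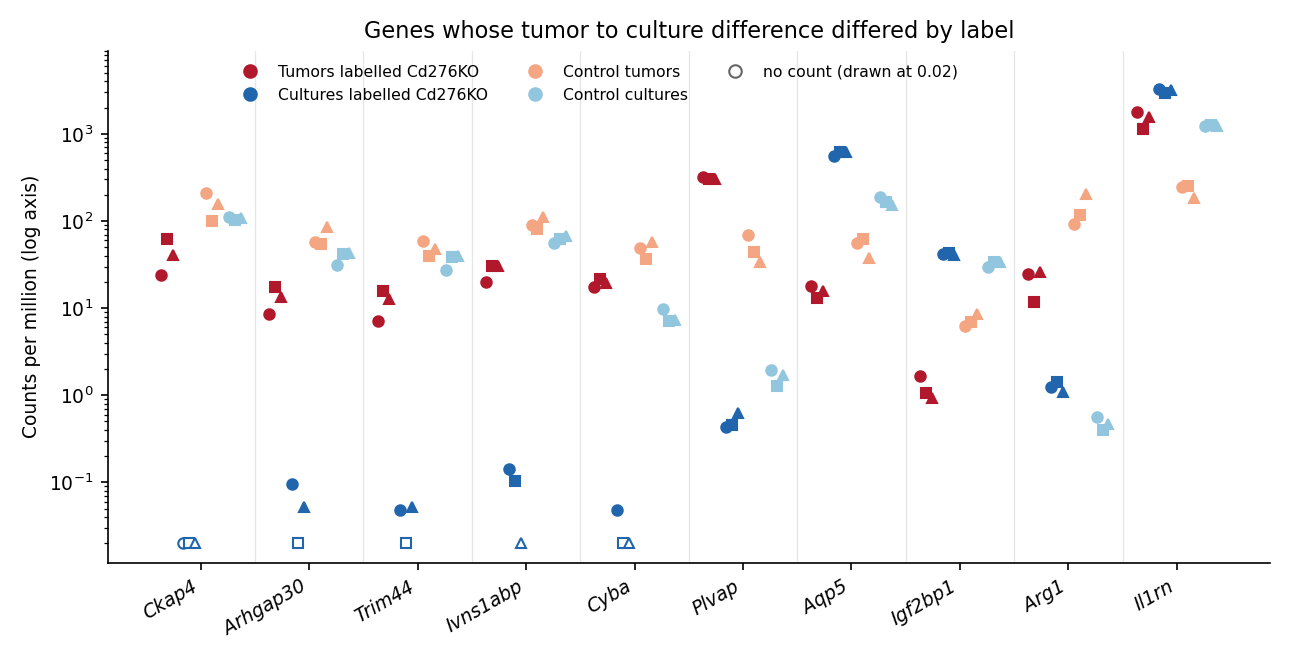
CPM (log axis) of 10 genes whose tumor to culture difference passed the interaction test, in the 12 HM-1 libraries. Dark marks are the tumors (red) and cultures (blue) labelled Cd276KO, light marks the control tumors and control cultures, the marker shape is the library number (circle 1, square 2, triangle 3) and open marks have no count. Ckap4 is at 0 in the cultures labelled Cd276KO and between 101 and 208 CPM in control tumors, and Plvap is above 300 CPM in the tumors labelled Cd276KO only.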

How the data were processed

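Per the labels' protocols, RNA was taken from cells or frozen tumors with an RNeasy kit and sequenced as bulk RNA. Per the submitters' processing notes, Trim Galore, STAR and HTSeq and the builds GRCm38 and mm10 were used, in versions, strand setting and annotation release not given in the sources used here. With no strand stated, reads of a gene and of one overlapping it on the other strand cannot be separated, and near-identical paralogs are uncertain. The authors deposited 1 table of whole-number counts per gene for 54752 genes and 18 libraries, not normalized, of which 24319 had no count in the 6 libraries compared. Per the deposited table, total counts were 17349082 to 23488280 in those 6.

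Gene symbols, positions and types came from a GENCODE annotation of GRCm38 (53861 IDs matched with their version and 54723 without it), and promoter windows from RefSeq (GRCm38.p6). The counts were fitted in R 4.3.3 with edgeR 4.0.16 (TMM scaling, filterByExpr, robust quasi-likelihood test) for the 6 libraries, and for the interaction over 12. P-values were adjusted by Benjamini-Hochberg over all genes tested, with a threshold of 0.05. A ratio to 1 to 3 culture counts has an exact 95% interval, and a fold against 0 counts uses 3 counts over the 3 cultures as a floor. Both cover counting error only. DESeq2 1.42.0, limma 3.58.1 with voom, other scalings, filters, sample sets, a replicate block and leaving out each library were alternatives.

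In simulated counts for 14330 genes, all but a small drawn set had equal means in tumors and cultures. Of genes changed there by 1.5, 2, 4 and 8 times, edgeR recovered 64%, 82%, 94% and 100%. It made 190 calls, of which 10.5% were false. For the interaction, over 15623 genes, it recovered 2%, 26%, 62% and 76% and made 87 calls, with 4.6% false. The deposited counts gave 10841 and 443 calls, so these shares do not carry over to them.

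Named genes were Cd276, Ccl2, Ccr2 and Mrc1, the 8 called genes with the largest change in each direction among those with at least 20 CPM in the higher group and no overlap, the 12 near-0 genes with the highest tumor CPM, those near 0 here but at 10 CPM or more in control cultures, up to 3 called members of each of 45 lists with the highest CPM, and the 5 highest and 5 lowest interaction genes with at least 5 CPM. Predicted genes, clones, pseudogenes and receptor segments were left out, and other list members were chosen after their values were seen. The comparison, its members and the lists were chosen with earlier results of these data known. A gene that the rule names is not reported here. Libraries from ID8 cells entered only the 18-library alternative.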

Additional observations from a re-analysis of the deposited data

Results flagged for a closer look

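For the genes below, the tumor minus culture difference under the Cd276KO label differed from that under the control label, by edgeR's interaction test over the 12 HM-1 libraries at an adjusted p under 0.05. Values are differences of log2 fold changes, positive where tumors exceeded cultures by more under the Cd276KO label.

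Among genes with at most 5 counts over the cultures labelled Cd276KO, the value was 12.34 for Ckap4 (SE 1.07, adjusted p = 0.000507), 7.12 for Arhgap30, 7.79 for Trim44, 7.21 for Cyba, 7.64 for Ivns1abp and 4.35 for Nefl. Those cultures held few or no counts of these genes, so the values depend on the fit's prior count and are no measure of size. Cyba, a subunit of the phagocyte oxidase, had 17.4, 21.8 and 19.7 CPM in the tumors labelled Cd276KO and 1 count over those cultures, against 49, 36.8 and 57.2 CPM in control tumors and 9.7, 7.06 and 7.31 CPM in control cultures. Csrp3, a striated muscle gene, had a value of 7.94 and was near 0 in the control cultures too. It had 5.95, 45.6 and 43.6 CPM in the tumors labelled Cd276KO and 3 counts over the cultures, against 0.769, 0.141 and 0.521 CPM in control tumors. The striated muscle list summed to 181 to 1284 CPM in the tumors labelled Cd276KO and 6.19 to 196.6 CPM in control tumors, and its part in the value was not tested.

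Larger differences under the Cd276KO label in other genes were 4.32 for Plvap, 1.39 for Il1rn, 1.34 for Pdgfb and 1.17 for Cx3cl1. Cx3cl1, a membrane-bound chemokine, had 101, 88 and 98 CPM in the tumors labelled Cd276KO and 43.5, 44.2 and 40.6 CPM in the cultures with that label.

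Smaller or more negative differences were -4.83 for Tff1, -3.56 for Aqp5, -2.96 for Igf2bp1 and -2.13 for Lipn, all among the 8 genes that fell most. Further values were -4.67 for Tmprss11b, -4.25 for Ptpn22, -4.17 for Cxcl2, -4.14 for Arg1, -3.68 for Cdh1, -2.45 for Msln, -2.29 for Mrc1, -2.26 for Fabp5 and -1.28 for S100a4. Msln had 72.1, 91.8 and 76.7 CPM in the tumors labelled Cd276KO and 44.7, 49.6 and 44.1 CPM in their cultures, against 100, 105 and 169 CPM in control tumors and 14.5, 12.2 and 12.7 CPM in control cultures. The calls of Lipn, Nefl, Csrp3, Cxcl2, Cdh1 and S100a4 ended without single libraries, and that of Tff1 ended with no filter on low counts (adjusted p = 0.0549).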

How the results depend on the processing

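The count of genes called between tumors and cultures labelled Cd276KO (10841) was 9640 to 13043 over 16 alternatives, 10113 to 11839 of it without single libraries and 10808 with the replicate block. Upper-quartile scaling and total counts raised the share of calls that were higher to 64.4% and 62.48% (54.46% with TMM) and shifted the median log2 fold change by 0.166 and 0.134. With no filter on low counts, 1680 genes were over 2-fold lower, in place of 1079. The set near 0 in the cultures (186 genes) held 66 genes at 0 counts and 330 at up to 10 counts over the cultures, 599 at 1 CPM or more and 85 at 10 CPM or more in each tumor, and 186 to 297 without single libraries.

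The count for the interaction (443) was 953 with DESeq2, 3077 with voom, 848 in the fit of 18 libraries and 313 with the replicate block. Without single libraries it was 225 to 913. It was 225, 244 and 229 without cultures 1, 2 and 3 labelled Cd276KO, 227 without tumor 3 labelled Cd276KO, 266 and 280 without control cultures 2 and 3, and 913 without control tumor 3. The cause was not tested.

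No pairing by replicate number was seen in the counts, though a pairing with little effect on expression would not show there. Same-numbered tumors and cultures had deviations from their group means that correlated at -0.0174, -0.000509 and -0.0232 over 14330 genes, and other pairs at up to 0.0701. No log2 fold change or interaction value of a named gene changed direction where called. Of the named genes' alternative values, 2303 log2 fold changes stayed on their side of the threshold, 71 lost and 7 gained a call. For the interaction, only named genes already called were followed, so a gain could not be counted. Of their values 472 stayed and 52 lost a call. Named genes outside that count, among them Ccl2, Spint2 and Xlr, did gain an interaction call when a single control tumor was left out. Of 19 T cell, 14 natural killer cell and 10 B cell genes, 5, 1 and 1 had enough counts to test.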
